A study of Mus musculus with 16 samples.

Results

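Surface and subset markers of bone marrow stroma were followed across SA and SS sickle mice. The markers are 10 genes picked by symbol, Lepr, Pdgfra, Pdgfrb, Thy1, Ly6a, Eng, Nes, Cspg4, Mcam and Grem1, and all 10 were found among the 52459 genes of the count table. All 10 were also among the 17316 genes kept for testing, which needed enough counts in at least 4 libraries, the number of 1 genotype. RNA was sequenced from stromal cells that were sorted out of digested bone marrow as live single cells lacking CD45, Ter119 and CD31 and carrying CD51 and CD140a. Both genotypes are of the Townes sickle model, in which human α-globin (hα) replaces the mouse gene. SS mice are hα/hα::βS/βS, with human sickle β-globin and human Aγ-globin in place of the mouse major and minor β-globin genes. SA mice, the controls, are hα/hα::βA/βS, with 1 sickle and 1 normal human β-globin allele, so that they too carry a sickle allele. Each genotype has 4 mice, with 1 library per mouse read on 2 lanes. No age of the mice is stated in the labels used here. Titles number the mice without stating separate animals in so many words, so p-values measure the spread between these libraries.

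Marrow stroma holds several kinds of mesenchymal cell that are told apart by such markers. Lepr, the leptin receptor, marks the abundant perisinusoidal reticular cells that make Cxcl12 and stem cell factor for blood stem cells, and Pdgfra, which encodes CD140a, is found on most of them. Thy1 and Ly6a (Sca-1) are small proteins held to the membrane by a GPI anchor and are used to pick out fibroblast-like and periarteriolar stromal cells. Pdgfrb, Nes, Cspg4 (NG2) and Mcam (CD146) are used as markers of pericytes and other cells on vessel walls. Eng (CD105), a coreceptor for TGF-β and BMP ligands, is shared by stromal and endothelial cells. Nes encodes an intermediate filament inside the cell and Grem1 a secreted BMP antagonist, so neither of these 2 is a surface protein. Since cells were gated on CD140a, the presence of Pdgfra transcripts is set by the sort. In sorted bulk RNA, fewer cells of a kind and less RNA per cell cannot be told apart.

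Library totals ran from 24797857 to 31117007 counts. SA replicates 1 and 2 and SS replicate 1 held the most leukocyte transcripts, with 15 pan-leukocyte genes summing to 4222, 4853 and 2873 CPM (counts scaled to a common library size) against 360 to 1493 CPM in the other 5 libraries. SS replicate 2 stood apart by 57347 counts of Xist, at most 420 elsewhere, and by 12 counts of the Y-linked Ddx3y, at least 2282 elsewhere, although the labels give no sex. In SS replicate 4, 1 of the 2 lanes is titled SS and annotated SA. Date-like numbers in the titles put every SA library in 1 set and the SS libraries in 2 others. SS replicate 2 is alone in 1 of these 2 SS sets. Whatever the numbers stand for and genotype thus cannot be told apart.

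Lepr was by far the most abundant of the 10 transcripts per length in both genotypes. In CPM per kilobase of exon it stood at 290 ± 113 (SD, n = 4) in SA and 306 ± 71.2 in SS. Pdgfrb followed at 90.5 ± 31.1 and 133 ± 13.3, then Grem1 at 60.0 ± 20.7 and 44.6 ± 18.2, and Pdgfra at 33.7 ± 14.8 and 42.2 ± 6.47. The range of Lepr did not overlap that of Pdgfrb in either genotype, whereas Grem1 and Pdgfra overlapped in both. Below these came Eng (10.9 ± 3.43 and 17.1 ± 4.17), Ly6a (8.79 ± 5.02 and 33.8 ± 23.7), Mcam (3.69 ± 1.37 and 13.1 ± 17.8) and Thy1 (1.59 ± 0.996 and 9.41 ± 5.67). Cspg4 (1.34 ± 0.675 and 1.53 ± 1.35) and Nes (0.353 ± 0.401 and 1.34 ± 1.93) were the lowest. The orders in SA and SS differ in 1 exchange of neighbours, Ly6a and Eng, whose ranges overlapped in each genotype. Among other neighbours, Pdgfra and Eng in SA, Pdgfrb and Grem1 in SS, and Thy1 and Cspg4 in SS had ranges that did not overlap. Lepr, Pdgfrb, Grem1 and Pdgfra were thus the 4 most abundant markers in both genotypes, and Cspg4 and Nes the 2 least abundant.

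**Figure D1:**
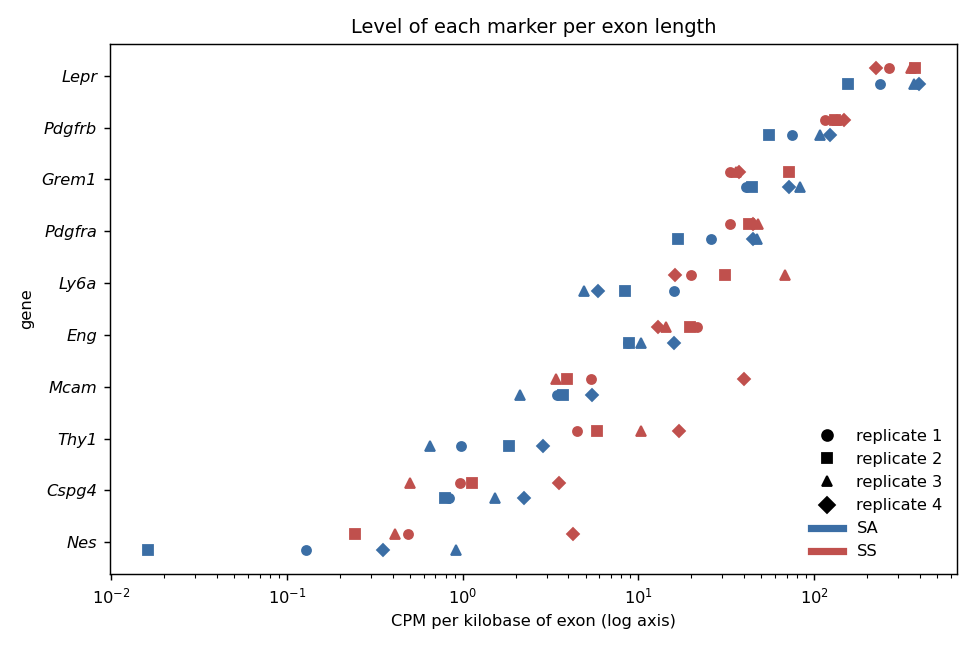
CPM per kilobase of exon (log axis) of each of the 10 markers in each library, with SA in blue and SS in red and 1 symbol shape per replicate number. Lepr lies above all other markers, and Mcam and Nes each have 1 SS library, replicate 4, far to the right of the rest.

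The first question was which markers differed between SS and SA. No marker passed the edgeR quasi-likelihood test over all genes (0 of 10 at a Benjamini-Hochberg adjusted p under 0.05), and 0 of the 17316 genes did (0 percent, smallest adjusted p = 0.148). At an unadjusted p under 0.05, 4 of the 10 were higher in SS (Thy1, Ly6a, Eng and Mcam) and 0 were lower, where 4.03 percent of all tested genes were higher and 2.96 percent lower at that level. Without SA replicate 1, without SA replicate 2, or without the 3 leukocyte-rich libraries the number was 2. Limma-voom called 0 markers. DESeq2, run on all genes with a count, called 2, Thy1 (adjusted p = 0.00382) and Ly6a (adjusted p = 0.0449), where it called 0.914 percent of the 19472 genes with an adjusted p higher in SS. On the genes kept for edgeR it called the same 2 markers (adjusted p = 0.00384 and 0.0495) and 0.497 percent of 17086 genes higher. Neither run gave an adjusted p to Mcam or Nes. The log2 fold change of SS over SA was above 0 for 9 of the 10 markers, with a median of 0.60, where 49 percent of all tested genes were above 0 and their median was -0.01. This direction depended on leukocyte content for some markers. With a pan-leukocyte score in the fit, Lepr (-0.18), Pdgfra (-0.03) and Cspg4 (-0.62) fell below 0. Without the 3 leukocyte-rich libraries the same markers did so (-0.27, -0.03 and -0.12). CPM values of the genotypes did not overlap for 2 markers, Thy1 and Ly6a, both higher in SS, where 2.36 percent of tested genes did so in that direction. For Ly6a the gap was from 19.3 CPM in the highest SA to 19.5 CPM in the lowest SS library, and when counts were scaled by library totals alone the 2 ranges overlapped (20.7 CPM in that SA and 19.5 CPM in that SS library), so only Thy1 stayed apart under both scalings.

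**Figure D2:**
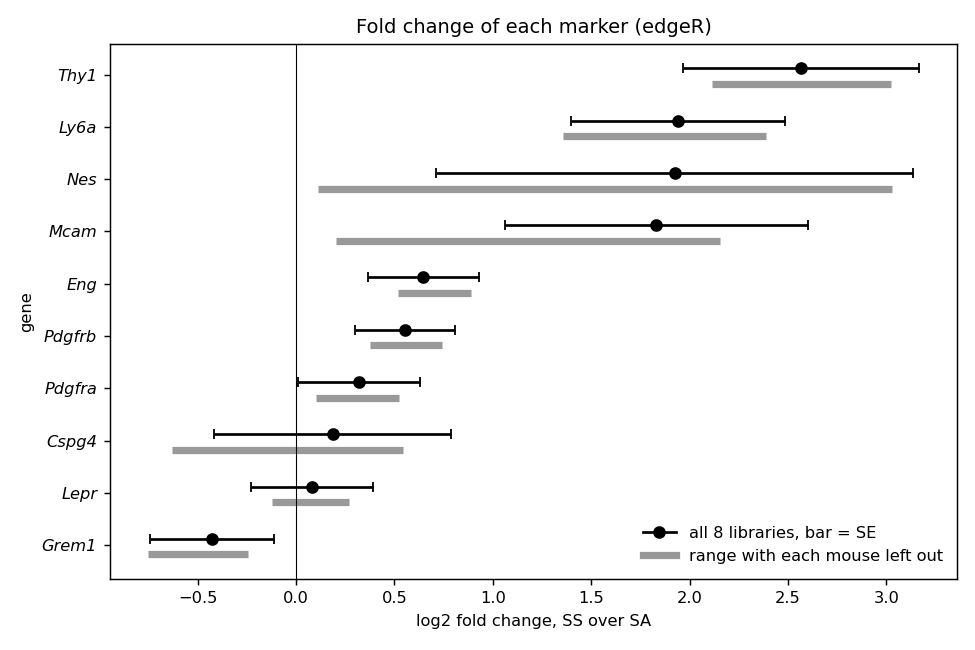
Log2 fold change of SS over SA for each marker by edgeR (points, with standard error bars) and its range when each mouse was left out in turn (grey bars). Thy1 and Ly6a stay above 1 throughout, whereas the grey bars of Nes and Mcam reach down to 0.11 and 0.20 and those of Lepr and Cspg4 cross 0.

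Among markers of the Lepr type, neither gene differed between genotypes by more than its spread. Lepr was at 1669, 1099, 2619 and 2783 CPM in SA replicates 1 to 4 and at 1891, 2649, 2508 and 1592 CPM in SS replicates 1 to 4. The genotypes overlapped over most of their range, and the lowest 2 SA libraries were the 2 rich in leukocyte transcripts. Its log2 fold change was 0.08 (SE 0.31, edgeR adjusted p = 0.975), and it turned to -0.12 without SA replicate 2, to -0.01 without SA replicate 1 and to -0.03 without SS replicate 2. Lepr lies on the plus strand of chromosome 4 (101717404 to 101815352 on GRCm38, GENCODE M21). Pdgfra, the receptor for PDGF that was also the sorting antigen, was at 260, 169, 476 and 449 CPM in SA and at 331, 427, 481 and 451 CPM in SS. SA replicates 1 and 2 were again the lowest, and the log2 fold change was 0.32 (SE 0.31, edgeR adjusted p = 0.846). It ran from 0.10 without SA replicate 2 to 0.53 without SA replicate 3. A fit with a pan-leukocyte score for each library gave -0.18 for Lepr and -0.03 for Pdgfra, and one that left out the 3 leukocyte-rich libraries gave -0.27 and -0.03.

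Thy1 and Ly6a were both low in SA and higher in every SS library. Thy1 was at 2.93, 5.52, 1.94 and 8.61 CPM in SA replicates 1 to 4 and at 13.3, 17.5, 30.9 and 51.01 CPM in SS replicates 1 to 4. The lowest value, in SA replicate 3, rests on 58 counts (95% exact Poisson interval 44.0 to 75.0, counting error only), and the highest, in SS replicate 4, on 1582. The SS mean was 5.93 times the SA mean, and the log2 fold change was 2.57 (SE 0.60, edgeR adjusted p = 0.520, higher in 4 of 4 SS libraries). Leaving out each mouse in turn gave values between 2.12 (SS replicate 4 absent) and 3.03 (SA replicate 4 absent), with an edgeR adjusted p from 0.295 to 0.929. Thy1 lies on chromosome 9 (44043384 to 44048579, plus strand). Ly6a was at 19.3, 10.1, 5.92 and 7.10 CPM in SA and at 23.8, 37.7, 81.9 and 19.5 CPM in SS. Here SS replicate 3 was the highest and SS replicate 4, which led for Thy1, the lowest of its genotype. The log2 fold change was 1.94 (SE 0.54, edgeR adjusted p = 0.604), with 1.35 without SS replicate 3 and 2.39 without SA replicate 1. Ly6a lies on chromosome 15 (74994877 to 74998031, minus strand) in a cluster of related genes. Of its annotated transcript sequence, 19.0% of 50-base windows also occur in another gene, most often Ly6c1, so part of its reads may be shared or dropped, whereas 0% of the Thy1 windows do.

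T cells, endothelial cells and blood stem cells also carry Thy1 or Ly6a, and their markers were read in the same libraries. The 14 T cell genes summed to 46.8 to 83.6 CPM in SA and 40.2 to 60.1 CPM in SS, with 13 of 14 counted in all 8 libraries, Cd4 and Cd2 the most abundant and 4 of 13 tested genes higher in SS. The 10 genes of blood stem and progenitor cells, led by Meis1 and Kit, summed to 48.98 to 141 CPM in SA and 49.1 to 110 CPM in SS, and 2 of 10 were higher in SS. The 15 endothelial genes, led by Pecam1 and Stab2, summed to 18.6 to 165 CPM in SA and 37.2 to 236 CPM in SS, with 10 of 14 tested genes higher in SS. SS replicate 1 was the highest of all in endothelial sum and the lowest SS library in Thy1. The pan-leukocyte genes ran the other way, with 0 of 15 higher in SS. Over all tested genes 49 percent were higher. At an unadjusted edgeR p under 0.05, 2 of 10 blood stem and 1 of 15 pan-leukocyte genes were lower, against 2.96 percent of all genes. No gene of these 4 lists was higher at that level, against 4.03 percent of all genes. Adding the pan-leukocyte score to the fit gave log2 fold changes of 2.02 for Thy1 and 2.48 for Ly6a. Leaving out the 3 leukocyte-rich libraries gave 2.65 and 2.83. The part of T, endothelial, blood stem and perivascular cells in Thy1 and Ly6a was not tested.

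Among the perivascular markers, Mcam, Nes and Cspg4 were highest of all 8 libraries in SS replicate 4, and the other SS libraries overlapped SA for each. Mcam, an adhesion molecule of vessel walls, was at 11.5, 12.5, 7.13 and 18.3 CPM in SA and at 18.1, 13.1, 11.4 and 133 CPM in SS. SS replicate 4 thus held 9.37 times the mean of the other 3 SS libraries (14.2 ± 3.45 CPM), which lay within the SA range. The log2 fold change of 1.83 (SE 0.77, edgeR adjusted p = 0.695) was 0.20 without SS replicate 4. Nes, the filament protein nestin, was at 0.827, 0.104, 5.89 and 2.24 CPM in SA and at 3.14, 1.56, 2.65 and 27.2 CPM in SS. The 3 counts in SA replicate 2 have a 95% exact Poisson interval of 0.619 to 8.77 counts, against 842 counts in SS replicate 4. Its log2 fold change of 1.93 (SE 1.21, edgeR adjusted p = 0.766) was 0.11 without SS replicate 4 and 3.03 without SA replicate 3.

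Cspg4, the proteoglycan NG2, was at 9.93, 9.45, 18.2 and 26.5 CPM in SA and at 11.6, 13.5, 6.01 and 41.9 CPM in SS. SS replicate 3 was the lowest library. The log2 fold change was 0.19 (SE 0.60, edgeR adjusted p = 0.968) and turned to -0.63 without SS replicate 4. Pdgfrb, a PDGF receptor of mural and reticular cells, had another pattern, at 409, 303, 593 and 677 CPM in SA and at 634, 721, 743 and 810 CPM in SS. The 4 SS values lay close together, and only SA replicate 4 reached into their range. Its log2 fold change was 0.55 (SE 0.25, edgeR adjusted p = 0.716), and it lay between 0.38 and 0.74 when 1 mouse was dropped. Adding the pan-leukocyte score gave 0.27 for Pdgfrb, 0.79 for Mcam, 0.56 for Nes and -0.62 for Cspg4.

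**Figure D3:**
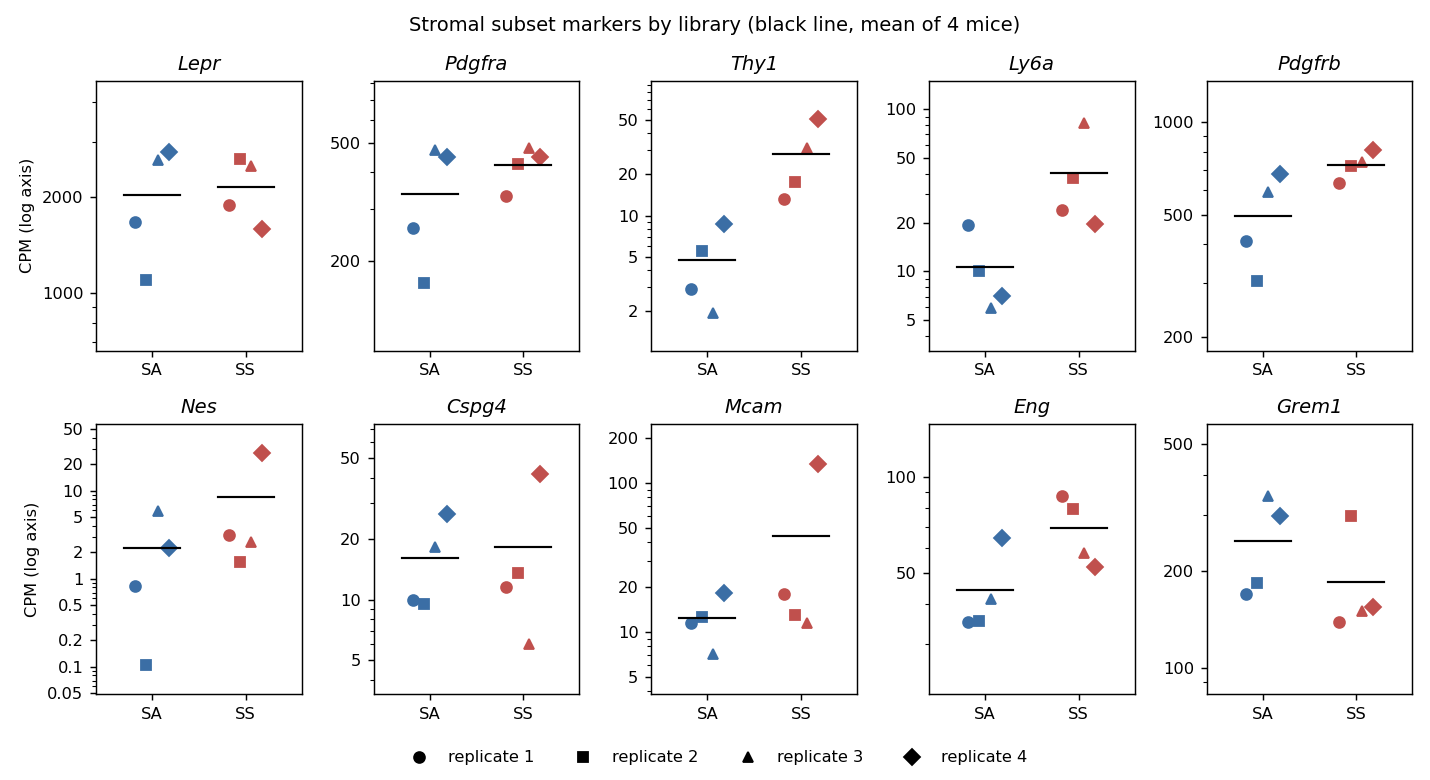
CPM of the 10 markers in each library (log axes that differ between panels), SA in blue and SS in red, with symbol shape for the replicate number and a black line for the mean of 4 mice. Thy1 and Ly6a show no overlap between genotypes, and replicate 4 stands above the other SS libraries for Nes, Cspg4 and Mcam.

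Upstream sequence is shown for Lepr and for 2 of the markers that peaked in SS replicate 4, Nes and Cspg4, since these differ in how they vary over the libraries. On GRCm38, GENCODE M21 places the protein-coding genes Nes on chromosome 3 (87971078 to 87980451), Cspg4 on chromosome 9 (56865033 to 56899870), Mcam on chromosome 9 (44134469 to 44142727), Pdgfra on chromosome 5 (75152292 to 75198215), Eng on chromosome 2 (32646595 to 32682669) and Grem1 on chromosome 2 (113746164 to 113758646). The sequences are from RefSeq on GRCm38.p6, run 5′ to 3′ on the plus strand from 250 bases before the RefSeq start, and stop where the first GENCODE exon begins. Of the 10 markers, 7 matched the promoter table. Thy1, Ly6a and Pdgfrb were not among them. Capitals mark matches on either strand to the TATA box (TATAAA), the CCAAT box, the GC box (GGGCGG), the core site of the Notch factor RBPJ (TGGGAA) or the CArG box, with no overlap between matches in the printed windows.
Lepr (chr4:101717157-101717403): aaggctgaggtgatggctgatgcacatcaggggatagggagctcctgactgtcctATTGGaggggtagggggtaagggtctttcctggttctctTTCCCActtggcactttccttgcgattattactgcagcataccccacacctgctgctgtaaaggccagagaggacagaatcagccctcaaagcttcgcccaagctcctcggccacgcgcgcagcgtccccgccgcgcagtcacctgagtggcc
Nes (chr3:87970843-87971077): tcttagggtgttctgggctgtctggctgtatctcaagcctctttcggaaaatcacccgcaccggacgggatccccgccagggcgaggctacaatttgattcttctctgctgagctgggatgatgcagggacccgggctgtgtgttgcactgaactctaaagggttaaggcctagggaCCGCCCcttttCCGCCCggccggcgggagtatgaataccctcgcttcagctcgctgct
Cspg4 (chr9:56864854-56865032): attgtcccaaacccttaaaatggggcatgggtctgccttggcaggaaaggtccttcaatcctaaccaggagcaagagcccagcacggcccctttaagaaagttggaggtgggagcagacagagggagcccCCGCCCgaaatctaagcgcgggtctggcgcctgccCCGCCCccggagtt
GGGCGG, a GC box, occurred at 2 places in the 250-base window of Nes, 2 in that of Cspg4, 5 in that of Mcam and 3 in that of Grem1, and at 0 in those of Lepr, Pdgfra and Eng. Of all 32851 windows of this length in the table, 32.7% hold it. All 5 Mcam matches lie past the start of its first GENCODE exon, which begins after 61 bases of the window. The Lepr window held 1 CCAAT and 1 TGGGAA, which 33.8% and 21.6% of all windows hold. TATAAA (12.4% of all windows) and the CArG box (1.47%) matched in 0 of the 7 windows.

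The remaining markers went in opposite directions. Eng, the TGF-β coreceptor, was at 35.2, 35.6, 41.7 and 64.6 CPM in SA and at 87.4, 79.7, 57.9 and 52.4 CPM in SS. SA replicate 4 lay above 2 of the SS libraries, and SS replicate 1, with the highest endothelial sum, was the highest in Eng. SA replicate 1, with an endothelial sum of 165 CPM, had the lowest Eng. The log2 fold change was 0.65 (SE 0.28, edgeR adjusted p = 0.695), 0.52 without SS replicate 1 and 0.25 when the leukocyte-rich libraries were all left out. Eng shares 61 exon bases with Fpgs on the other strand. Pdgfra likewise shares 456 with Gm42802 and 166 with Gm42803, and Mcam shares 17 with Gm10687. The counting may or may not have used strand. Grem1 was the 1 marker with a lower mean in SS, at 170, 183, 344 and 298 CPM in SA and at 139, 298, 150 and 155 CPM in SS. SS replicate 2 lay far above the other 3 SS libraries, which were below every SA library. Its log2 fold change was -0.43 (SE 0.32, edgeR adjusted p = 0.792), -0.75 without SS replicate 2 and -0.24 without SA replicate 3. Adding the pan-leukocyte score gave -0.88.

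The Lepr type was then set against the other types within each library, where library scaling cancels. Lepr exceeded the mean of Thy1 and Ly6a by 5.88, 5.30, 7.67 and 6.57 on a log2 scale of CPM per kilobase in SA replicates 1 to 4 and by 4.83, 4.80, 3.75 and 3.76 in SS replicates 1 to 4. Every SS value was below every SA value. The means were 6.35 ± 1.02 in SA and 4.28 ± 0.612 in SS, or 81.8-fold and 19.5-fold, a difference of -2.07 (no test, since the markers were chosen with results known). Leaving out each mouse moved it between -2.42 and -1.63, and leaving out the 3 leukocyte-rich libraries gave -3.02. Taken alone, the ratio to Thy1 differed by -2.43 between the genotypes and that to Ly6a by -1.71. Lepr itself had a log2 fold change of 0.08, so these contrasts mostly restate the differences of Thy1 and Ly6a. For Ly6a the highest SS library (3.80) and the lowest SA library (3.88) lay close together.

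Against the mean of Pdgfrb, Nes, Cspg4 and Mcam the ratio of Lepr was 6.66, 6.74, 6.45 and 6.35 in SA and 6.004, 6.75, 6.81 and 3.71 in SS. SS replicates 2 and 3 lay just above all 4 SA libraries, SS replicate 1 just below them and SS replicate 4 far below. The difference of the means was -0.73, and it was -0.03 without SS replicate 4. Lepr over Pdgfrb differed by -0.47, over Mcam by -0.92, over Nes by -1.72 and over Cspg4 by 0.20, each with overlap between the genotypes. Relative to Pdgfra the difference was -0.28, and relative to Grem1 it was 0.58.

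**Figure D4:**
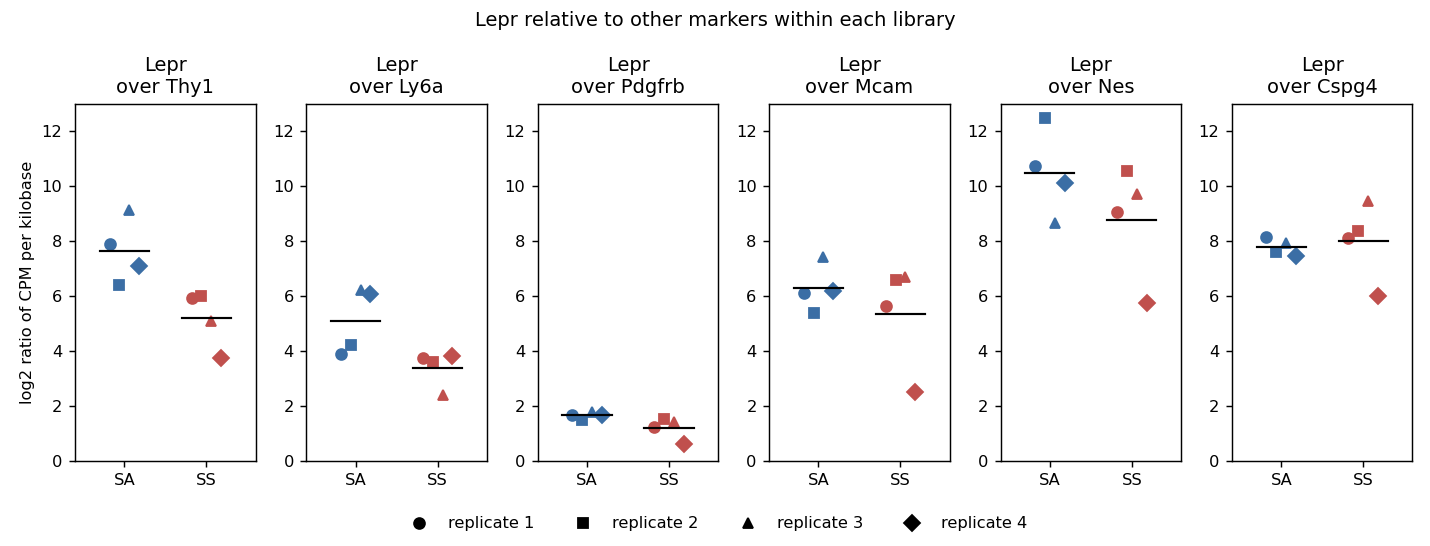
Log2 ratio of Lepr to each of 6 other markers within each library, from CPM per kilobase of exon, by genotype (SA blue, SS red, shape for the replicate number, black line for the mean of 4 mice). The SS libraries lie below all SA libraries for Thy1 and for Ly6a, and for Mcam, Nes and Cspg4 only replicate 4 of SS falls below every SA library.

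Other genes of each stromal type, from lists chosen with earlier results of these data known, were read beside the markers. Of 18 partners of the Lepr type 15 had a log2 fold change above 0 (median 0.28) and 1 had an unadjusted p under 0.05, where the background is 49 percent and 4.03 percent. That 1 gene was Cebpa, a transcription factor of fat differentiation, which averaged 43.8 ± 10.1 CPM in SA against 67.4 ± 21.7 in SS (log2 fold change 0.62, SE 0.28, edgeR adjusted p = 0.707). Lpl, which encodes lipoprotein lipase, had 0.83 with 3393 CPM in SS replicate 4, Chrdl1, a BMP antagonist, -0.59, the chemokine Cxcl14 0.63, and the plasma protein haptoglobin, Hp, 0.55. The summed level of these partners was 19734 to 43657 CPM in SA and 31801 to 46097 CPM in SS. Their median log2 fold change was 0.11 with the pan-leukocyte score in the fit and 0.15 without the 3 leukocyte-rich libraries.

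Of 18 tested partners of the Thy1/Ly6a type, 12 were above 0 (median 0.41, where 49 percent of all genes were above 0) and 2 had an unadjusted p under 0.05, both higher (4.03 percent of all genes). Dpt, the matrix protein dermatopontin, was at 0.188, 0.382, 0.234 and 0.442 CPM in SA and at 9.34, 17.6, 1.27 and 4.80 CPM in SS (difference 4.71 on the log2 scale, SE 0.96, edgeR adjusted p = 0.411). Sema3c, a secreted semaphorin, was at no more than 0.569 CPM in SA and at 3.63, 14.4, 1.31 and 3.19 CPM in SS (4.15, SE 1.12, edgeR adjusted p = 0.595). Neither gene overlapped between genotypes (2 of 18, where 2.36 percent of all genes were higher with no overlap), but SS replicate 2 led both, while SS replicates 3 and 4 had more Thy1. Cd248, endosialin, had 1.61, where SS replicate 4 had 54.8 CPM and the other SS libraries had 6.38 to 10.8. The matrix genes Col14a1 and Fbln1 had 1.55 and 0.65, and the SS values of Col14a1 ran from 3.98 to 89.6 CPM.

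Perivascular partners had the highest median of the 4 lists. Of 17 tested, 15 were above 0 (median 1.06), 9 had an unadjusted p under 0.05 and were higher, and 4 were higher with no overlap between genotypes. Over all tested genes these shares were 49, 4.03 and 2.36 percent. Notch3, the Notch receptor of mural cells, was at 76.3, 61.4, 95.7 and 73.6 CPM in SA and at 133, 141, 152 and 213 CPM in SS (1.06, SE 0.22, edgeR adjusted p = 0.411). Its target Heyl had 0.84 and Aspn, the small proteoglycan asporin, 2.01. Rgs5, which damps G-protein signals in pericytes, reached 4998 CPM in SS replicate 4. The other SS libraries had 725 to 1088 CPM, all above the 192 to 459 CPM of SA (log2 fold change 2.48, SE 0.60, edgeR adjusted p = 0.520). Kcnj8, a subunit of a pericyte potassium channel, was at 19.97, 1.23, 17.9 and 67.6 CPM in SS and at most 3.88 CPM in SA. The summed level of the perivascular partners was 978 to 1415 CPM in SA, 2048 to 2683 CPM in SS replicates 1 to 3 and 7569 CPM in SS replicate 4. Rgs5 and Mylk led this sum, and Rgs5 alone made up 4998 of the 7569 CPM. The gap between genotypes in the sum thus belongs in large part to Rgs5 and not to the whole list. The median log2 fold change of the list was 0.83 when SS replicate 4 was dropped, 1.48 when SA replicate 4 was, and 0.65 with the pan-leukocyte score in the fit.

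Ligands and signalling partners of the markers were read in the same way. Of 17 tested, 11 were above 0 (median 0.15, and -0.09 without the 3 leukocyte-rich libraries) and 0 had an unadjusted p under 0.05 by edgeR. Over all tested genes 49 percent were above 0. At that p, 4.03 percent of all genes were higher and 2.96 percent lower. Bmpr2, a receptor for BMP ligands, was at 404, 329, 577 and 546 CPM in SA and at 458, 631, 668 and 587 CPM in SS (0.34 on the log2 scale, SE 0.23, edgeR adjusted p = 0.777). Jak2, the kinase bound to the leptin receptor, had a log2 fold change of -0.37, the PDGF ligand Pdgfd 0.70 and Pdgfb 2.56, the last led by SS replicate 4 (11.9 CPM), where no other library passed 1.25 CPM. Lgals3, a galectin also made by macrophages, had -0.99. Of the sorting antigens, Itgav, which encodes CD51, was at 252 to 427 CPM in SA and 389 to 820 CPM in SS. Its log2 fold change was 0.82 (SE 0.27, edgeR unadjusted p = 0.0111, adjusted p = 0.695). Ptprc, which encodes CD45, was at 124 to 748 CPM and 49.7 to 499 CPM, and Pecam1, which encodes CD31, at 4.23 to 44.9 CPM and 0.833 to 31.4 CPM. Their log2 fold changes were -1.17 and -1.20 (edgeR adjusted p = 0.777 and 0.833).

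**Figure D5:**
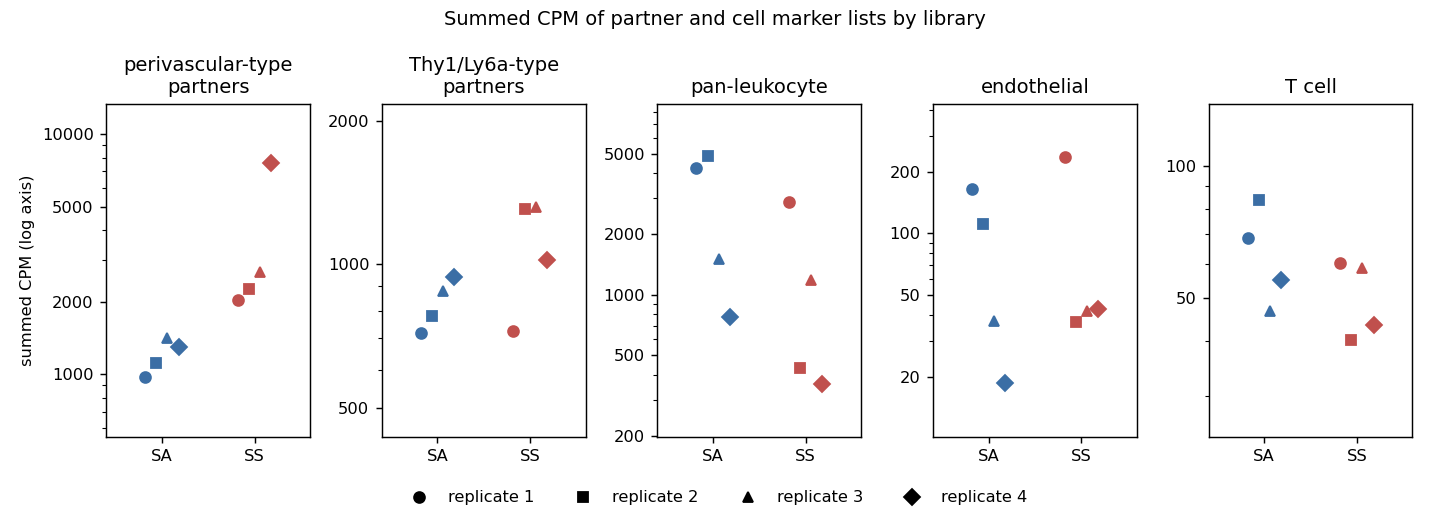
Summed CPM per library (log axes that differ between panels) of the perivascular and Thy1/Ly6a partner lists and of pan-leukocyte, endothelial and T cell marker lists, SA in blue and SS in red with symbol shape for the replicate number. The perivascular sum is at least 2048 CPM in each SS library and reaches 7569 CPM in replicate 4, of which Rgs5 is 4998 CPM. SS replicate 1 is the highest library in endothelial markers.

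Genes with the pattern most like that of a marker were named by the mean absolute difference of centred log2 CPM over the 8 libraries, among the 11558 genes averaging 5 CPM or more. Nearest to Lepr were Cxcl12, the chemokine that retains blood stem cells (0.0712), Gas6, a ligand of TAM receptors (0.0764), and Shroom3, an actin-binding protein (0.0873). Closest to Thy1 were Aspn, from the list of perivascular partners (0.388), the matrix metalloproteinase Mmp11 (0.454) and the fibrillar collagen Col3a1 (0.472). For Ly6a they were the transcription factor Tead2 (0.397), the GTPase-activating protein Stard8 (0.422) and the glycosyltransferase A4galt (0.431). The nearest marker to Lepr was Pdgfra (0.193), while Thy1 and Ly6a were each other's nearest marker at 0.844. A nearest marker was picked from 9 genes and the nearest genes from 11558, so their distances cannot be compared. All 8 libraries, with both genotypes and all depths, enter these values, so genes that differ between genotypes are near one another by that alone.

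Markers of other cells in the gate were also read. The 10 osteoblast genes, led by Spp1 and Col1a1, summed to 6103 to 24227 CPM in SA and 4520 to 17786 CPM in SS. Of these, 8 of 10 were lower in SS, where 49 percent of all tested genes were higher. At an unadjusted edgeR p under 0.05, 3 of the 10 were lower, against 2.96 percent of all genes. The 8 chondrocyte genes, led by Col2a1 and Comp, reached 682 CPM in SS replicate 2, the SS library with the most Grem1, and 59.7 to 142 CPM in the other SS libraries, against 83.7 to 440 CPM in SA. Of the 10 Schwann cell genes 3 were counted in all 8 libraries, among them Pmp22 and S100b, which other stromal cells also make. The part of these cells in the marker values was not tested.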

How the data were processed

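The deposited table holds the authors' raw counts of reads per gene, with 1 column for each mouse. A second deposited table of normalized values was not used. The submitters' processing notes list bcl2fastq, STAR, featureCounts and DESeq2, and mm10 and GRCm38 as builds. What each tool did, the gene annotation and whether counting used strand are not stated there. The quasi-likelihood F test of edgeR 4.0.16 (R 4.3.3) was run on the counts after filterByExpr, with TMM factors and robust dispersions, and p-values were adjusted by Benjamini-Hochberg over the 17316 genes kept (threshold 0.05). The SE is the size of the log2 fold change over the square root of F. CPM are counts scaled by TMM-adjusted totals, and log2 ratios use a prior count of 2. Exon lengths are the union of GENCODE M21 exons, matched by symbol. Alternatives were DESeq2 1.42.0, limma-voom 3.58.1, other factors and filters, the replicate number as a block, a pan-leukocyte covariate, and left-out libraries. The edgeR and DESeq2 fits were tested on simulated data, where both missed changed genes and called some unchanged ones, DESeq2 more of the latter. The lane with conflicting labels followed its title. The markers, lists and tests were chosen with earlier results of these data known. The list of ligands and signalling partners was shortened by 1 gene that is not reported here. Genes named besides the 10 markers are the 3 sorting antigens, up to 5 per partner list with the smallest p, the 3 nearest patterns of Lepr, Thy1 and Ly6a, and the 2 most abundant genes per marker list.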

Additional observations from a re-analysis of the deposited data

Results flagged for a closer look

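Among 152 groups of 4 libraries, 14 held 1 library whose gap to the next was large against the range of the group. All 14 were SS groups. In SS replicate 4 these were Mcam at 133.1 CPM (others 11.45 to 18.07), Nes at 27.15 CPM (1.557 to 3.135), Rgs5 at 4998 CPM (725.1 to 1088), Cd248 at 54.85 CPM (6.376 to 10.85), Pdgfb at 11.9 CPM (0.1086 to 1.127) and the perivascular partner sum at 7569 CPM (2048 to 2683). Mcam, Nes and the partner genes were read from the same library, so these 6 flags are not independent of one another.

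SS replicate 2 was far from the other SS libraries in Grem1, at 297.7 CPM (138.6 to 154.7), in Col2a1, at 412.1 CPM (24.52 to 67.92), and in the chondrocyte sum, at 682 CPM (59.75 to 142.5). This library was also the 1 set apart by Xist, Ddx3y and, within SS, the date-like number in its title. Their part in its values was not tested. SS replicate 3 was the lowest in the ratio of Lepr to Ly6a, at 2.387 on a log2 scale of CPM per kilobase (3.586 to 3.797), and the highest in Hp, at 1267 CPM (542.5 to 622.7). SS replicate 1 was high in Pecam1, at 31.42 CPM (0.8328 to 4.771), in Stab2, at 56.12 CPM (0.6879 to 9.435), and in the endothelial sum, at 236.1 CPM (37.22 to 42.76). Pecam1 and Stab2 are part of the endothelial sum and Col2a1 of the chondrocyte sum, so these flags are not independent either.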

How the results depend on the processing

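The number of genes called was 0 by edgeR and limma-voom, 5 by edgeR without a low-count filter, 315 by DESeq2 and 128 by DESeq2 on the genes kept for edgeR (an alternative chosen after seeing the data), and 0 to 1 with each mouse left out (1 without SS replicate 1). Of the 10 markers, 2 were called by DESeq2 in each of its runs (Thy1 and Ly6a, the latter with adjusted p = 0.0449 and 0.0495) and 0 otherwise. The number at an unadjusted p under 0.05 was 2 without the 3 leukocyte-rich libraries and 2 to 5 with each mouse left out (2 without SA replicate 1 or 2, 5 without SA replicate 4). Directions held in all 19 alternatives for Thy1 (2.02 to 3.03), Ly6a (1.35 to 2.83), Eng, Pdgfrb, Nes, Mcam and Grem1. They turned for Lepr (-0.18 with the leukocyte covariate, -0.27 without the 3 libraries, -0.12 to 0.27 with each mouse left out), Pdgfra (-0.026 with the covariate and -0.031 without the 3 libraries) and Cspg4 (-0.023 by limma-voom, -0.020 with the replicate block, -0.62 with the covariate, -0.12 without the 3 libraries, -0.63 to 0.55 with each mouse left out). The contrast of Lepr with Thy1 and Ly6a was -3.02 without the 3 libraries. The cause of these changes was not tested. Whether equal replicate numbers pair the libraries is not known. Same-numbered deviations had correlations of 0.22, -0.15, -0.02 and 0.14. SA replicate 2 and SS replicate 1, both leukocyte-rich, had 0.216, so these values cannot settle a pairing. With the replicate number as a block 0 genes were called, Thy1 stood at 2.58 and Mcam at 1.03. Counts were lowest for Nes (3 to 176 per SA library), where the 95% Poisson intervals of the 4 SA libraries do not overlap, so their spread is larger than counting error.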

Other observations

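Neighbours on the chromosome were looked at after the values of the markers were seen. Thy1 and Mcam lie 85889 bases apart on chromosome 9, and both were highest in SS replicate 4. Of the 2 tested genes between them, Usp2 was also highest there (22.8 CPM, at most 10.5 CPM in the other 7 libraries), and Rnf26 was lowest there (4.39 CPM, at least 5.75 CPM elsewhere). Their log2 fold changes of SS over SA were 0.83 and -0.29 (edgeR adjusted p = 0.825 and 0.932). The 7 other tested genes of the Ly6 family examined (Ly6e, Ly6c1, Ly6c2, Ly6i, Ly6d, Ly6g and Ly6k) all had log2 fold changes below 0, where 49 percent of all tested genes were above 0, and 0 of the 7 passed the edgeR test (1, Ly6c2, had an unadjusted p under 0.05). The 15 pan-leukocyte genes were also all below 0, and Ly6c2 was highest in SA replicates 1 and 2 (180 and 264 CPM), which had the highest pan-leukocyte sums. The part of leukocytes in these values was not tested. Ly6c2, a monocyte and lymphocyte surface gene, averaged 141 CPM in SA against 38.3 in SS (log2 fold change -1.88, edgeR adjusted p = 0.695), and Ly6c1, with which Ly6a shares most sequence, averaged 4.57 and 3.49 CPM.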
